A study of Mus musculus with 9 samples.

Results

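The tumour necrosis factor (TNF) superfamily consists of ligands, mostly anchored in the membrane of one cell, and receptors on another. The receptors have no enzyme activity of their own: they gather TRAF adaptor proteins, which lead to NF-kappaB and to survival signals, or, where they carry a death domain, to caspases. On T cells the costimulatory receptors are raised after contact with antigen, and ligands such as CD40L give help to B cells and dendritic cells. The 10 genes described here are 5 receptors (Tnfrsf4, Tnfrsf9, Tnfrsf18, Tnfrsf1b and Cd27) and 5 ligands (Cd40lg, Tnfsf10, Tnfsf11, Tnfsf14 and Ltb). They were chosen by name from 18193 genes measured, and each is represented by the brightest of its probe sets that list it as the only gene (17 such probe sets for the 10, of 34945 in all).

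The material was RNA bound to Argonaute (AGO), the protein that holds microRNAs and the transcripts they pair with, from C57BL/6 mouse T cells. For 24 h the T cells had faced allogeneic BALB/c dendritic cells, anti-CD3e and anti-CD28 antibodies (0.1 µg/ml), or syngeneic C57BL/6 dendritic cells. The co-cultures held 20 T cells per dendritic cell, and no dendritic cells are named for the antibody culture. After magnetic purification, all T cells were crosslinked with ultraviolet light, and the RNA recovered with AGO was amplified for Affymetrix arrays, with 1 array for each sample. Each group had 3 arrays, numbered as biological replicates 1 to 3 with no animal or culture named, so p-values measure only the spread between these arrays. Values are log2 array signals, and without arrays of input RNA here, transcript abundance and AGO binding cannot be told apart. Nor can fewer cells of a type be told apart from less RNA per cell.

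All 9 arrays carried T cell RNA: the 11 measured T cell markers were above the array median on every array. RNA of other cells was present as well. The 14 measured macrophage and monocyte markers had a summed signal (log2) of 9.80 to 10.8 on allogeneic arrays, 8.60 to 10.1 on anti-CD3/CD28 arrays and 12.7 to 13.2 on syngeneic arrays. The 8 measured B cell markers had 12 to 12.9, 11.4 to 12.7 and 12.6 to 13.8 in the same order. Arrays were more alike within a replicate number than within a group: replicate number held a median of 92.7% of a gene's variance over the 9 arrays and group 2.08%. For the 10 TNF superfamily genes those shares were 13.5% to 99.5% for number and 0.0102% to 19.3% for group. Differences are therefore also given within each number, and between arrays of the same number 17.9% to 49.0% of genes had exactly equal deposited values, against 0% between arrays of different numbers. In number 1, allogeneic minus anti-CD3/CD28 had an SD over genes of only 0.103 (log2), against 0.493 in number 2 and 0.680 in number 3. The scale of the deposited values also differed by number. Array medians (log2) were 4.58 to 4.59 in number 1, 5.60 to 5.67 in number 2 and 4.81 to 4.93 in number 3. Quartiles on allogeneic arrays 1 to 3 were 4.28 and 5.71, 4.32 and 7.03, and 3.44 and 7.78. The variance share of number includes this, and differences within numbers lie on unequal scales.

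The genes lie on 6 chromosomes of the mouse genome (GRCm38.p6, RefSeq). Tnfrsf4 (chr4:156013595-156016613) and Tnfrsf18 (chr4:156026322-156028894) are neighbours 9709 bases apart, on a chromosome that also holds Tnfrsf9 (chr4:150920155-150946104) and Tnfrsf1b (chr4:145212368-145246870). Cd27 is at chr6:125232620-125237136 and Cd40lg at chrX:57212143-57224042. Tnfsf10 is at chr3:27317077-27339665 and Tnfsf11 at chr14:78277446-78308043. Ltb (chr17:35194507-35196305) and Tnfsf14 (chr17:57189474-57194181) share a chromosome.

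RefSeq promoter windows, the 250 bases before a transcript start on the gene's strand, were given for 9 of the 10 genes, with 2 starts for Tnfrsf9; Cd40lg had no entry. They were searched on both strands for 3 motifs of factors that act downstream of the T cell receptor and CD28: a loose NF-kappaB form (GGG, any 5 bases, then CC), the AP-1 form TGANTCA and the NFAT core TGGAAA. The NF-kappaB form was in 45.8% of all 32851 RefSeq windows and in 6 of the 10 windows of these genes, the AP-1 form in 6.75% and in 2, and the NFAT core in 18.6% and in 4. A match is only a description of letters. The windows below belong to Tnfsf10 and Tnfrsf1b, the genes that were lower within every number in both stimulated cultures, to Tnfrsf4, which was higher within every number in allogeneic than in antibody culture, and to the second start of Tnfrsf9, the only one of the 4 with AP-1 and NF-kappaB matches. The Tnfsf14 window, not shown, also held AP-1 and NF-kappaB matches (1 and 4), and 1 NFAT core. Capitals mark matches to any of the 3 motifs.
Tnfsf10, chr3:27316827-27317076, plus strand: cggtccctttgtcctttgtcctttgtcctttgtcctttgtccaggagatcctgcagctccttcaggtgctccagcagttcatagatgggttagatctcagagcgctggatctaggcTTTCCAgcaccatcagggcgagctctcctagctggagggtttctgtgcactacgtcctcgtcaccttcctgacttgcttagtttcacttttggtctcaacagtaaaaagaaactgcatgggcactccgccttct
Tnfrsf1b, chr4:145246871-145247120, minus strand: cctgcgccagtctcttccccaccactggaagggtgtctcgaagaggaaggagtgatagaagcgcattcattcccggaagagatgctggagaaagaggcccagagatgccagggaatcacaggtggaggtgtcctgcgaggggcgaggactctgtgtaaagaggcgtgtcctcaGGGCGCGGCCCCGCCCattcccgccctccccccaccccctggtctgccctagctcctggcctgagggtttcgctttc
Tnfrsf4, chr4:156013445-156013694, plus strand: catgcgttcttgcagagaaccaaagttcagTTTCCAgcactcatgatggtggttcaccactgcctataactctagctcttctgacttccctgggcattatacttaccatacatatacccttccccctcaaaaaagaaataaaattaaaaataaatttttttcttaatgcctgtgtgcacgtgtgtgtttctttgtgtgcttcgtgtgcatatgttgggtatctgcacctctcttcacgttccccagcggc
Tnfrsf9, second start, chr4:150927749-150927998, plus strand: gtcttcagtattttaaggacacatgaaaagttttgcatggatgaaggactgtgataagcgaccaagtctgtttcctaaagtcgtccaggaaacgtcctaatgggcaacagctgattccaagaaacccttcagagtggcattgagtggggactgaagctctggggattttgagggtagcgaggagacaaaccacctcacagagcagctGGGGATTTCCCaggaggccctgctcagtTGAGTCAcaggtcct
The Tnfsf10 and Tnfrsf4 windows each held 1 NFAT core, 134 and 220 bases before the start of the window's transcript. For Tnfrsf4 that start lies inside the gene interval given above, so part of the window lies within that interval. Tnfrsf1b held 3 overlapping matches to the loose NF-kappaB form, all in 1 GC-rich run. The second Tnfrsf9 window held a pair of overlapping NF-kappaB matches, 43 and 42 bases before the start, and an AP-1 match 15 bases before it.

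None of the 10 genes passed limma's test in any of the 3 comparisons: adjusted p (Benjamini-Hochberg over 18193 genes, threshold 0.05) was 1 for all 30 differences, and no unadjusted p was under 0.05. The lowest unadjusted p of the 30, from the same limma fit, was 0.335. Over all genes 0% passed in allogeneic minus syngeneic, 0% in anti-CD3/CD28 minus syngeneic and 0% in allogeneic minus anti-CD3/CD28 cultures. At an unadjusted p under 0.05 there were 27, 156 and 24 of the 18193 genes. A fit with replicate number as a block also called 0 genes, and 825, 1236 and 205 had an unadjusted p under 0.05. In that fit, 2 of the 30 differences had an unadjusted p under 0.05, both of Tnfsf10. With replicate number as a random block, limma called 1, 30 and 0 genes, none of them among the 10. In that fit 4 of the 30 differences had an unadjusted p under 0.05, beside 1178, 1996 and 674 of all genes. They were Tnfrsf1b in allogeneic (0.033) and anti-CD3/CD28 (0.027) minus syngeneic, Tnfsf10 in anti-CD3/CD28 minus syngeneic (0.043) and Tnfrsf4 in allogeneic minus anti-CD3/CD28 culture (0.040). The lowest adjusted p of the 30 there was 0.366. For none of the 10 genes were the 3 arrays of a group wholly above or below those of another group, which held for 0.643%, 1.93% and 0.324% of all genes in the 3 comparisons. The gap between neighbouring group means was smaller than the larger of their SDs in all 10 genes, so the order of the 3 cultures is a description only. The highest mean was in allogeneic culture for 3 genes, in anti-CD3/CD28 culture for 4 and in syngeneic culture for 3. Standard errors of the log2 differences were 0.490 to 1.09, or 0.132 to 0.466 with the block. Unless the block is named, the SEs given below are from the fit without it. Those SEs include the spread between numbers and do not describe the spread of the differences within numbers.

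**Figure D1:**
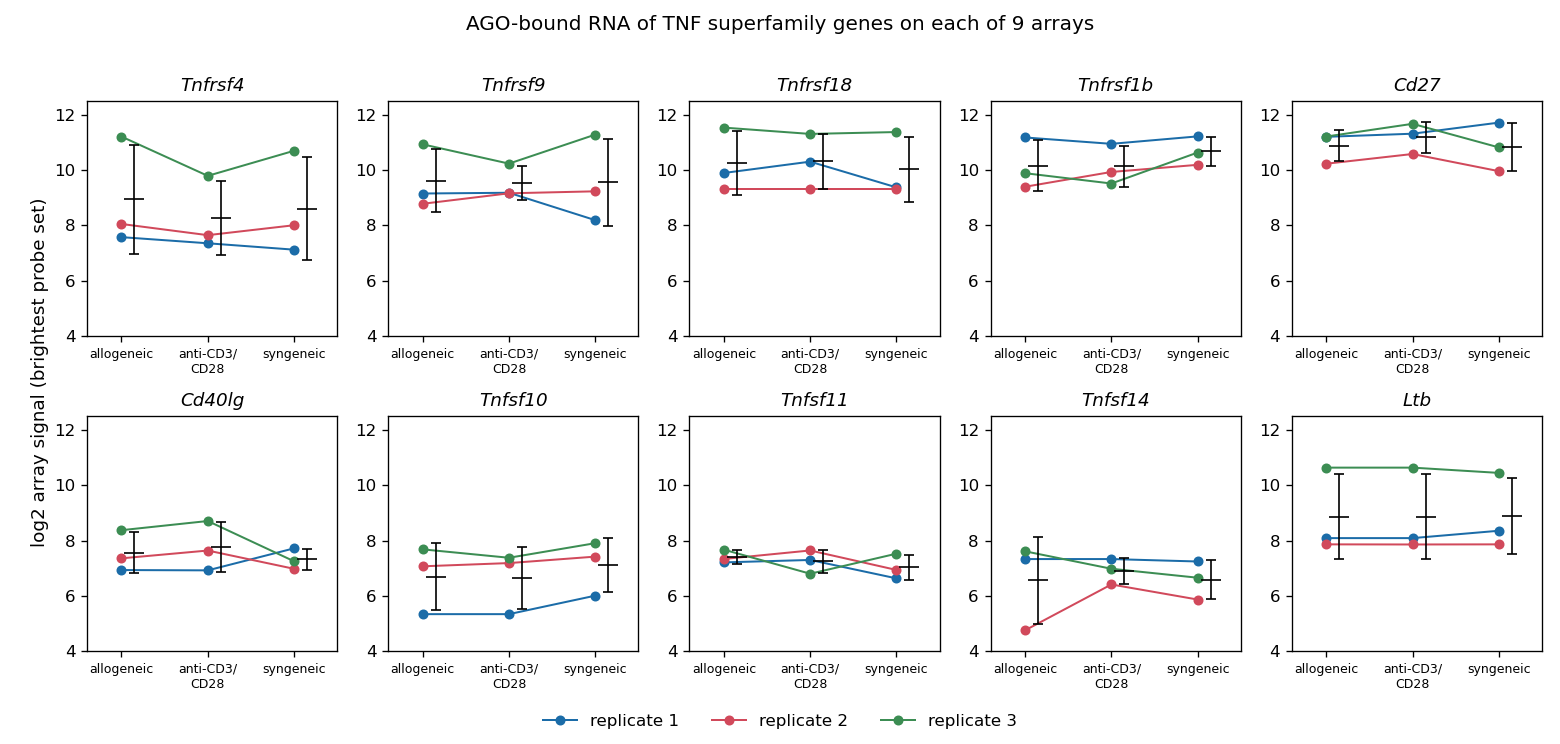
Log2 array signal of the brightest probe set of each of 10 TNF superfamily genes (y axis) in allogeneic, anti-CD3/CD28 and syngeneic cultures (x axis). Coloured points and lines are the arrays of 1 replicate number, black dashes with bars are the mean and SD of 3 arrays; Tnfrsf4 and Ltb spread widely by number and little by culture.

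Direction within the replicate numbers was mixed, and was the same in all 3 for few of the genes. In allogeneic minus syngeneic cultures 2 of the 10 were higher within every number (Tnfrsf4 and Tnfsf11), against 7.29% of all genes, and 2 were lower (Tnfrsf1b and Tnfsf10), against 7.96%. In anti-CD3/CD28 minus syngeneic cultures 1 was higher (Tnfsf14), against 7.8%, and 2 were lower (Tnfrsf1b and Tnfsf10 again), against 9.15%. These comparisons share the syngeneic arrays. In allogeneic minus anti-CD3/CD28 cultures 1 was higher (Tnfrsf4), against 4.39%, and 1 was lower (Cd27), against 2.58%. A gene with equal values in any number cannot count either way. Between allogeneic and syngeneic arrays 32.1%, 17.9% and 26.5% of all genes were equal in numbers 1 to 3, against 0, 2 and 0 of the 10. Such ties lower the shares of all genes given here and beside the lists below, so the comparison with them is not like for like. Counts this small among 10 genes give no result about the family as a whole.

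**Figure D2:**
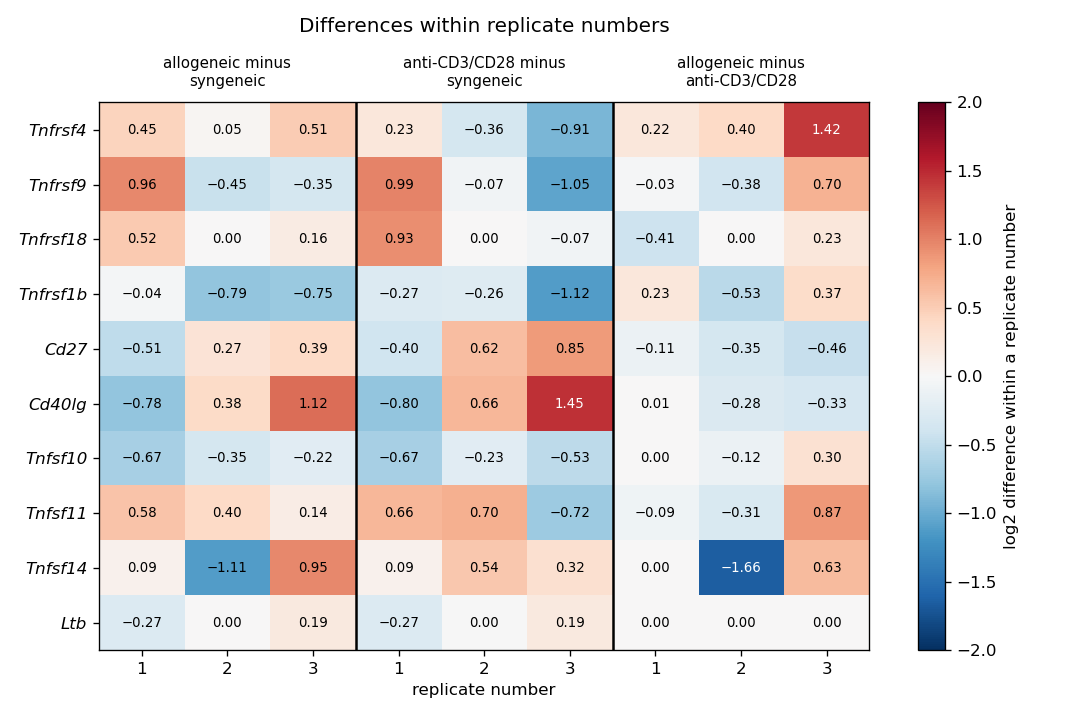
Log2 differences within replicate numbers 1, 2 and 3 (x axis) for 10 TNF superfamily genes (y axis) in 3 comparisons; red is higher and blue lower in the first-named culture. Tnfrsf1b and Tnfsf10 are below 0 in all 6 columns that involve syngeneic culture, and Cd27 and Cd40lg are below 0 in number 1 and above it in numbers 2 and 3 against syngeneic culture.

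Tnfrsf4 encodes OX40, a costimulatory receptor of activated T cells that prolongs their survival. Its signal was 7.57, 8.05 and 11.20 on allogeneic arrays 1 to 3, 7.35, 7.64 and 9.79 on anti-CD3/CD28 arrays, and 7.12, 8.0 and 10.69 on syngeneic arrays. The arrays of number 3 were high in every culture, and the groups overlapped. Allogeneic exceeded anti-CD3/CD28 culture within each number, by 0.22, 0.40 and 1.42, and the means were 8.94 ± 1.97 and 8.26 ± 1.33 (SD, n = 3 each), a log2 difference of 0.68 ± 1.09 (SE). Allogeneic minus syngeneic was 0.34 ± 1.09 (0.45, 0.05 and 0.51 within numbers), and anti-CD3/CD28 minus syngeneic was −0.34 ± 1.09 (0.23, −0.36 and −0.91). None was called. With the block the SE was 0.28, and limma gave allogeneic minus anti-CD3/CD28 an unadjusted p of 0.053 and an adjusted p of 0.928.

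Tnfrsf9 encodes CD137, another costimulatory receptor raised by stimulation, prominent on CD8 T cells. Its brightest probe set read 9.15, 8.78 and 10.92 on allogeneic, 9.17, 9.15 and 10.23 on anti-CD3/CD28, and 8.18, 9.23 and 11.28 on syngeneic arrays. Only the syngeneic array of number 1 was below both stimulated arrays of its number. Differences from syngeneic culture were 0.96, −0.45 and −0.35 for allogeneic and 0.99, −0.07 and −1.05 for anti-CD3/CD28 culture, with means of 0.05 ± 0.78 and −0.04 ± 0.78 (SE). A second probe set had 8.02, 7.47 and 11.03 on allogeneic, 7.95, 8.33 and 10.65 on anti-CD3/CD28, and 5.84, 7.47 and 10.67 on syngeneic arrays. It gave 2.18, 0.00 and 0.36 for allogeneic and 2.11, 0.86 and −0.01 for anti-CD3/CD28 minus syngeneic culture, so both probe sets read higher in the stimulated cultures of number 1. In numbers 2 and 3 the second was at or above 0 where the first was below it, except for anti-CD3/CD28 culture in number 3, where both were below 0. The remaining probe set lay under the array median on all 9 arrays.

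Tnfrsf18 encodes GITR, a costimulatory receptor that regulatory T cells carry at rest and other T cells gain on stimulation. It read 9.89, 9.32 and 11.53 on allogeneic, 10.30, 9.32 and 11.30 on anti-CD3/CD28, and 9.37, 9.32 and 11.37 on syngeneic arrays. In number 2 the 3 deposited values were exactly equal, so that number gives no measured comparison. Numbers 1 and 3 gave 0.52 and 0.16 for allogeneic and 0.93 and −0.07 for anti-CD3/CD28 minus syngeneic culture. The mean differences were 0.23 ± 0.72 and 0.29 ± 0.72 (SE), and neither was called. Its neighbour Tnfrsf4 differed by 0.22 in number 1 and 1.42 in number 3 between allogeneic and anti-CD3/CD28 culture, where Tnfrsf18 differed by −0.41 and 0.23.

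Tnfrsf1b encodes TNFR2, the TNF receptor without a death domain, carried by regulatory and activated T cells and also by myeloid cells. Its signal was 11.17, 9.39 and 9.88 on allogeneic arrays, 10.94, 9.93 and 9.51 on anti-CD3/CD28 arrays, and 11.21, 10.18 and 10.63 on syngeneic arrays. The syngeneic array was the highest of its number each time, though the groups overlapped. Allogeneic minus syngeneic culture was −0.04, −0.79 and −0.75, a mean of −0.53 ± 0.55 (SE), and anti-CD3/CD28 minus syngeneic culture was −0.27, −0.26 and −1.12, a mean of −0.55 ± 0.55. The second, dimmer probe set did not share this: it gave 0.11, −0.09 and 0.12 for allogeneic and 0.11, 0.00 and −0.59 for anti-CD3/CD28 minus syngeneic culture. The macrophage and monocyte markers differed the same way, with 14 of 14 lower on average in each stimulated culture and a median log2 difference of −0.82 for allogeneic and −1.21 for anti-CD3/CD28 minus syngeneic culture. Of those 14, between 7 and 10 were at or under the array median on allogeneic arrays, 9 to 11 on anti-CD3/CD28 arrays and 4 to 6 on syngeneic arrays. Their part in the Tnfrsf1b signal was not tested.

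Cd27, the receptor for CD70, is carried by naive and memory T cells. It read 11.20, 10.22 and 11.21 on allogeneic, 11.31, 10.58 and 11.67 on anti-CD3/CD28, and 11.71, 9.95 and 10.81 on syngeneic arrays. Allogeneic was below anti-CD3/CD28 culture within each number, by −0.11, −0.35 and −0.46, with a mean of −0.31 ± 0.49 (SE). Against syngeneic culture the sign changed between numbers: −0.51, 0.27 and 0.39 for allogeneic and −0.40, 0.62 and 0.85 for anti-CD3/CD28 culture. The mean differences were 0.05 ± 0.49 and 0.36 ± 0.49.

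Cd40lg encodes CD40L, the ligand by which helper T cells license dendritic cells and B cells. Its signal was 6.93, 7.36 and 8.37 on allogeneic, 6.92, 7.64 and 8.70 on anti-CD3/CD28, and 7.72, 6.98 and 7.25 on syngeneic arrays. The stimulated arrays were higher in numbers 2 and 3 and lower in number 1: the differences were −0.78, 0.38 and 1.12 for allogeneic and −0.80, 0.66 and 1.45 for anti-CD3/CD28 minus syngeneic culture. The means were 0.24 ± 0.66 and 0.44 ± 0.66 (SE), and neither was called. Without the arrays numbered 1 they were 0.75 and 1.06, still not called. After removal of the mean of each number, Cd40lg and Cd27 had the highest correlation of any pair of the 10 genes, r = 0.938 over 9 arrays, and Tnfrsf9 and Ltb the lowest, r = −0.854. The arrays share their numbers and, in the stimulated cultures of number 1, equal values for 49.0% of genes, so these are descriptions.

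Tnfsf10 encodes TRAIL, a ligand that triggers death receptors and is induced by interferon in many cell types. It read 5.34, 7.07 and 7.68 on allogeneic, 5.34, 7.18 and 7.38 on anti-CD3/CD28, and 6.01, 7.42 and 7.90 on syngeneic arrays. As for Tnfrsf1b, the syngeneic array was the highest of each number while the groups overlapped. Differences were −0.67, −0.35 and −0.22 for allogeneic and −0.67, −0.23 and −0.53 for anti-CD3/CD28 minus syngeneic culture, with means of −0.41 ± 0.83 and −0.48 ± 0.83 (SE). With the block the SE was 0.14, and limma gave unadjusted p of 0.031 and 0.018 and adjusted p of 0.709 and 0.727. The other probe sets were equal or lower: 1 gave −0.33, 0.00 and −0.87 for allogeneic and −0.14, 0.00 and −1.68 for anti-CD3/CD28 culture, and the other had 0.00, 0.00 and −0.57, and 0.00, 0.00 and −1.25. For the brightest probe set, number 1 had exactly equal allogeneic and anti-CD3/CD28 values. Macrophage and monocyte markers were lower in the same cultures (above), and their part in the Tnfsf10 signal was not tested.

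**Figure D3:**
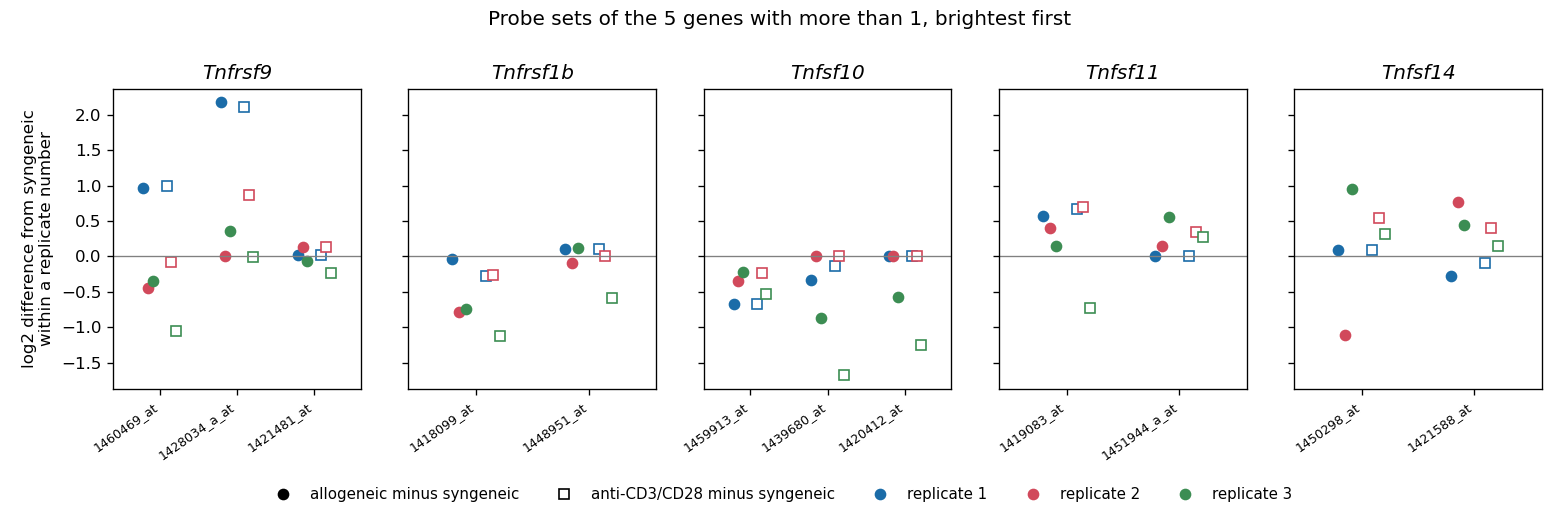
Log2 differences from syngeneic culture within replicate numbers (y axis) for every probe set (x axis) of the 5 TNF superfamily genes with more than 1; filled circles are allogeneic and open squares anti-CD3/CD28 culture, coloured by replicate number. Tnfsf10 probe sets lie at or below 0, while those of Tnfrsf1b and Tnfsf14 disagree.

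Tnfsf11 encodes RANKL, the ligand of the receptor RANK on dendritic cells and osteoclast precursors. It had 7.21, 7.33 and 7.67 on allogeneic, 7.30, 7.64 and 6.80 on anti-CD3/CD28, and 6.63, 6.94 and 7.52 on syngeneic arrays. Allogeneic was above syngeneic culture within each number, by 0.58, 0.40 and 0.14, with means of 7.40 ± 0.24 and 7.03 ± 0.45 (SD, n = 3 each) and a log2 difference of 0.37 ± 0.58 (SE). In anti-CD3/CD28 minus syngeneic culture it was higher in numbers 1 and 2 (0.66 and 0.70) and lower in number 3 (−0.72). Replicate number held only 13.5% of its variance, the least of the 10 genes.

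Tnfsf14 encodes LIGHT, a ligand of HVEM and the lymphotoxin beta receptor. Its signal was 7.33, 4.76 and 7.61 on allogeneic, 7.33, 6.41 and 6.98 on anti-CD3/CD28, and 7.24, 5.87 and 6.66 on syngeneic arrays. The allogeneic array of number 2 was the lowest of the 9 and the only one at or under its array median for any of the 10 genes. Anti-CD3/CD28 minus syngeneic culture was 0.09, 0.54 and 0.32, and allogeneic minus syngeneic culture 0.09, −1.11 and 0.95. The second probe set had 6.91 on that allogeneic array, against 6.14 on the syngeneic array of number 2, so the low value was not shared by it. In anti-CD3/CD28 minus syngeneic culture that probe set gave −0.09, 0.41 and 0.15, so it was not higher in number 1.

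Ltb encodes lymphotoxin beta, which joins lymphotoxin alpha in the membrane complex that shapes lymphoid tissue. Its values were 8.09, 7.86 and 10.63 on allogeneic, 8.09, 7.86 and 10.63 on anti-CD3/CD28, and 8.35, 7.86 and 10.44 on syngeneic arrays. Cultures hardly differed: −0.27, 0.00 and 0.19 for allogeneic and the same to 2 decimals for anti-CD3/CD28 minus syngeneic culture. Of these, the allogeneic and syngeneic values in number 2, and the allogeneic and anti-CD3/CD28 values in numbers 1 and 3, were exactly equal. Replicate number held 99.5% of the variance of Ltb.

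The other ligands and receptors of the superfamily were not called either. Of 22 other receptors 0 were higher and 3 lower within every number in allogeneic minus syngeneic culture, beside 7.29% and 7.96% of all genes. In anti-CD3/CD28 minus syngeneic culture 0 were higher and 4 lower, beside 7.8% and 9.15% of all genes. Median log2 differences of these receptors were 0.06 and −0.01, beside 0.03 and 0.00 for all genes. Fas, the death receptor, differed by −0.44 ± 0.88 (SE) in allogeneic and −1.12 ± 0.88 in anti-CD3/CD28 minus syngeneic culture, with −0.96, −0.13 and −2.26 within numbers in the antibody comparison, which was −0.54 without number 3. Cd40, the receptor of CD40L on antigen-presenting cells, was 9.07, 8.96 and 10.64 on allogeneic, 8.80, 8.66 and 8.95 on anti-CD3/CD28, and 8.20, 9.84 and 10.88 on syngeneic arrays. It differed by 0.75 ± 0.68 in allogeneic minus anti-CD3/CD28 and by −0.84 ± 0.68 in anti-CD3/CD28 minus syngeneic culture. The latter was 0.60, −1.17 and −1.93 within numbers, so number 1 had the opposite sign. Without number 3 the Cd40 means were 0.28 and −0.29, and without number 1 the second was −1.55. The dendritic cell markers, 16 measured, had a summed signal (log2) of 12.87 to 14.95 on allogeneic, 12.58 to 13.78 on anti-CD3/CD28 and 13.42 to 14.87 on syngeneic arrays. Their part in Cd40 and in the ligands that dendritic cells carry was not tested. The receptor of RANKL, Tnfrsf11a, differed by 0.58 ± 0.53 in allogeneic minus anti-CD3/CD28 and −0.43 ± 0.53 in anti-CD3/CD28 minus syngeneic culture, or by 0.070 and −0.13 without number 3. Its signal was dim, above the array median only on the allogeneic and syngeneic arrays of number 3. Tnfrsf13c, a B cell receptor, and Tnfrsf10b, the mouse TRAIL receptor, differed by −0.33 ± 0.59 and 0.31 ± 0.67 in allogeneic minus syngeneic culture. Tnfrsf1a, the TNF receptor with a death domain, and Tnfrsf14, which encodes HVEM, differed by −0.25 ± 0.79 and 0.21 ± 0.77 in that comparison.

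Among 9 other ligands, Lta was furthest from 0 in the comparisons of allogeneic with syngeneic culture. Lta encodes lymphotoxin alpha, the partner of Ltb, and read 7.67, 8.70 and 9.79 on allogeneic, 7.92, 8.14 and 9.90 on anti-CD3/CD28, and 6.12, 8.21 and 8.21 on syngeneic arrays. The differences were 1.55, 0.49 and 1.59 for allogeneic and 1.80, −0.08 and 1.69 for anti-CD3/CD28 minus syngeneic culture, with means of 1.21 ± 0.80 and 1.14 ± 0.80 (SE). Lta was thus higher in 5 of the 6 pairs, where Ltb hardly differed. Tnf itself was equal between allogeneic and anti-CD3/CD28 arrays in numbers 1 and 2, and differed from syngeneic culture by 0.00, 0.03 and 1.25 for allogeneic and 0.00, 0.03 and 1.43 for anti-CD3/CD28 culture. Tnfsf4, the OX40 ligand of antigen-presenting cells, was 4.49, 6.39 and 4.48 on anti-CD3/CD28 and 4.53, 7.26 and 7.92 on syngeneic arrays, a log2 difference of −1.45 ± 1.05. On allogeneic arrays it was 4.58, 6.71 and 8.23, which differed from anti-CD3/CD28 culture by 1.39 ± 1.05. Tnfsf9, the ligand of CD137, and Cd70, that of CD27, differed by 0.69 ± 0.81 and 0.64 ± 0.65 between allogeneic and anti-CD3/CD28 culture, with 0.00 in number 1 for each. Without number 3 the Tnfsf4 differences were −0.46 and 0.20, and those of Tnfsf9 and Cd70 were 0.25 and 0.080. On the anti-CD3/CD28 array of number 3, Tnfsf4 and Cd70 read 4.48 and 4.40, under the array median of 4.93. Tnfsf4 was also under the median on every array of number 1. Fasl differed by −0.90 ± 0.97 in anti-CD3/CD28 minus syngeneic culture (0.00, −0.20 and −2.50 within numbers), and by −0.10 without number 3. Its equal values in number 1 were under the array medians. Tnfsf8 differed by 0.64 ± 0.89 in allogeneic minus syngeneic culture (0.00, 1.73 and 0.19), and by 0.097 without number 2.

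Adaptors and NF-kappaB genes downstream of these receptors leaned lower in the antibody culture, with 0 called. Of 18 adaptor genes 7 were lower and 0 higher within every number in anti-CD3/CD28 minus syngeneic culture, and 5 and 0 in allogeneic minus syngeneic culture, beside the 9.15% and 7.96% of all genes given above. Their median log2 differences were −0.37 and −0.14. Markers of some other cells were lower on average in anti-CD3/CD28 minus syngeneic culture too. These were 15 of 16 dendritic cell markers (median −0.78), 14 of 14 macrophage and monocyte markers (−1.21) and 8 of 8 stromal markers (−0.69). B cell and granulocyte markers each had 4 higher and 4 lower (−0.05 and −0.07), and NK cell markers 4 higher and 2 lower (0.08). Of the T cell markers, 10 of 11 were higher (0.28). Within every number 8 of the dendritic cell, 8 of the macrophage and monocyte and 1 of the stromal markers were lower, and 0 of each were higher. The stromal medians within numbers 1 to 3 were 0.00, −2.07 and 0.00, so that difference lay in number 2. The part of these other cells in the adaptor and NF-kappaB values was not tested. Traf1, an adaptor that CD137 and OX40 use and NF-kappaB induces, read 10.31, 10.25 and 11.35 on allogeneic, 10.26, 9.83 and 10.94 on anti-CD3/CD28, and 11.23, 10.69 and 11.64 on syngeneic arrays. It was lowest in anti-CD3/CD28 and highest in syngeneic culture within each number, with −0.55 ± 0.45 (SE) for allogeneic and −0.85 ± 0.45 for anti-CD3/CD28 minus syngeneic culture. Birc3 and Birc2, ubiquitin ligases bound by TRAF2, differed by −0.83 ± 0.49 and −0.91 ± 0.43 in anti-CD3/CD28 and by −0.57 ± 0.49 and −0.42 ± 0.43 in allogeneic minus syngeneic culture. Between allogeneic and anti-CD3/CD28 cultures Birc2 differed by 0.49 ± 0.43, Tank by 0.60 ± 0.56 and Cflar, which holds caspase-8 in check, by 0.46 ± 0.45. Without number 3 Tank differed by 0.22.

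Of 12 NF-kappaB genes 6 were lower and 0 higher within every number in anti-CD3/CD28 minus syngeneic culture, with a median of −0.41, beside 9.15% of all genes lower within every number. In allogeneic minus syngeneic culture 2 were lower and 0 higher, with a median of 0.10, beside 7.96% of all genes lower. Nfkbia, the inhibitor that NF-kappaB induces to stop itself, read 12.23, 12.03 and 11.83 on allogeneic, 12.01, 11.24 and 11.30 on anti-CD3/CD28, and 12.53, 11.90 and 12.10 on syngeneic arrays. The antibody arrays were the lowest of each number, by −0.66 ± 0.31 (SE) against syngeneic culture, and allogeneic exceeded anti-CD3/CD28 culture by 0.51 ± 0.31. The inhibitor Nfkbie and the adhesion gene Icam1 differed by −1.12 ± 0.56 and −0.89 ± 0.46 in anti-CD3/CD28 and by −0.50 ± 0.56 and −0.48 ± 0.46 in allogeneic minus syngeneic culture. The kinase gene Ikbkb differed by −0.47 ± 0.49 in allogeneic minus syngeneic culture, and Bcl3 by 1.13 ± 0.92 in allogeneic minus anti-CD3/CD28 culture. Without number 2 these were −0.18 and 0.71, and without number 3 Nfkbie was −0.73 in anti-CD3/CD28 minus syngeneic culture. Nfkb2, the subunit of the non-canonical pathway, differed by −0.44 ± 1.17 in anti-CD3/CD28 minus syngeneic culture. In allogeneic minus anti-CD3/CD28 culture 11 of the 12 NF-kappaB genes and 13 of the 16 dendritic cell markers were higher on average, with medians of 0.43 and 0.18. Dendritic cell markers had a median of −0.22 in allogeneic minus syngeneic culture, with 15 of 16 lower.

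**Figure D4:**
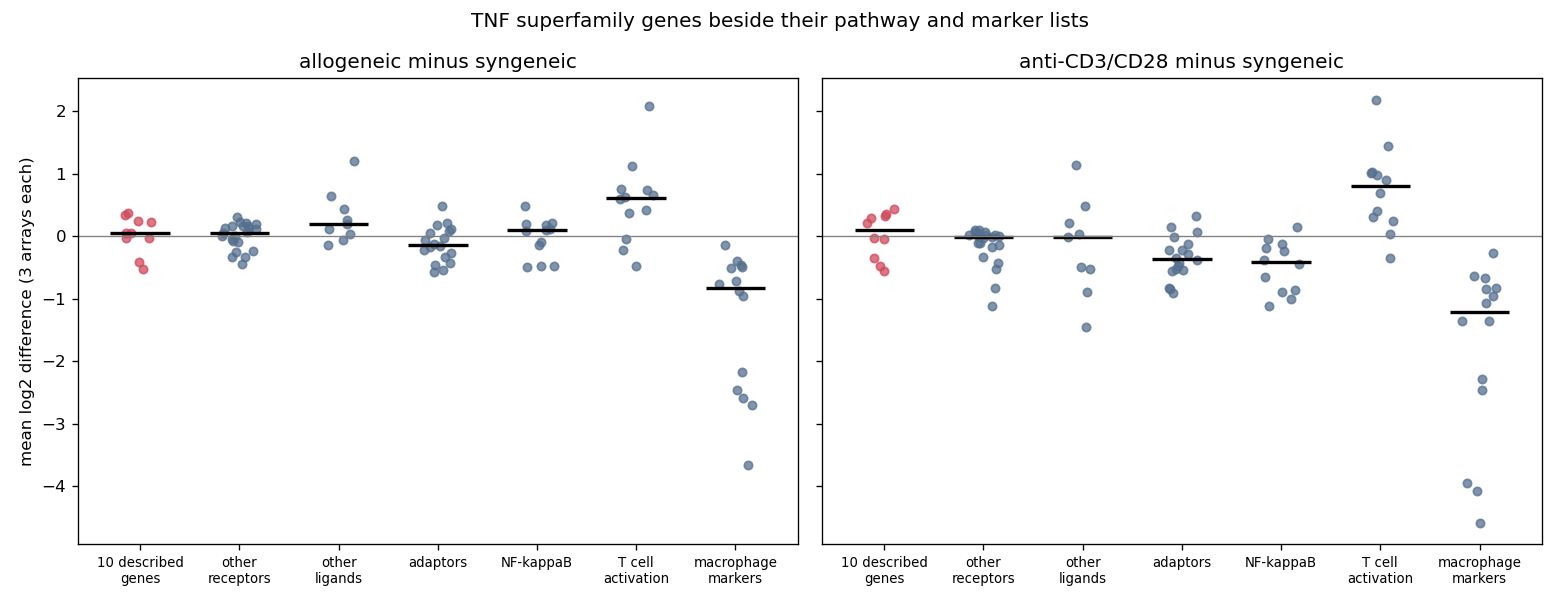
Mean log2 difference of each measured gene (points, y axis; 3 arrays per group) in 7 gene lists (x axis), for allogeneic (left) and anti-CD3/CD28 (right) minus syngeneic culture; black lines are list medians. The 10 TNF superfamily genes (red) lie around 0, with activation genes mostly above and macrophage markers below it.

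Of 12 genes of T cell activation 0 were called, and most were higher on average in each stimulated culture (9 in allogeneic and 11 in anti-CD3/CD28 minus syngeneic culture). Within every number 4 were higher in allogeneic and 9 in anti-CD3/CD28 minus syngeneic culture, with 0 lower in each, beside 7.29% and 7.8% of all genes higher, and medians were 0.61 and 0.80. The T cell markers had medians of 0.02 and 0.28 in these comparisons, with 7 and 10 of 11 higher on average, and their part in the activation values was not tested. Il2ra, the interleukin-2 receptor chain of activated and regulatory T cells, read 10.47, 11.06 and 11.71 on allogeneic, 10.29, 10.75 and 11.43 on anti-CD3/CD28, and 9.60, 10.47 and 11.18 on syngeneic arrays. It was highest in allogeneic and lowest in syngeneic culture within each number, which no gene of the 10 showed. The granule protease gene Gzmb differed by 2.09 ± 0.71 (SE) and 2.19 ± 0.71, and the transferrin receptor Tfrc by 0.75 ± 0.46 and 1.02 ± 0.46, in allogeneic and in anti-CD3/CD28 minus syngeneic culture. Number 1 carried most of this: Gzmb was 4.07, 0.94 and 1.25 within numbers for allogeneic and 4.09, 1.04 and 1.44 for anti-CD3/CD28 culture. Without number 1 the Gzmb means were 1.09 and 1.24 and the Tfrc means 0.16 and 0.53. The amino acid transporter Slc7a5 differed by 1.12 ± 0.61 in allogeneic, and the nuclear receptor Nr4a1 by 1.45 ± 0.78 in anti-CD3/CD28 minus syngeneic culture. In allogeneic minus anti-CD3/CD28 culture Nr4a1 differed by −0.82 ± 0.78 and Ctla4 by −0.33 ± 0.47, or by −0.17 and −0.11 without number 2.

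Of 8 genes of regulatory T cells, which carry GITR, OX40 and TNFR2, 3 were higher and 3 lower within every number in anti-CD3/CD28 minus syngeneic culture. In allogeneic minus syngeneic culture there were 1 and 1. Over all genes 7.8% and 9.15%, and 7.29% and 7.96%, were higher and lower. The 3 higher were Il2ra and Ctla4, both also in the activation list above, and Gpr83 (0.02, 0.02 and 0.73 within numbers). Foxp3 gave −0.42, 0.00 and 0.06 in that antibody comparison. Ikzf4 read 10.42, 10.40 and 10.15 on allogeneic, 10.27, 9.04 and 8.61 on anti-CD3/CD28, and 10.43, 10.48 and 10.40 on syngeneic arrays. Antibody arrays lay lowest in each number, by −1.14 ± 0.47 (SE) against syngeneic culture. Itgae differed by −0.82 ± 0.61 and Ctla4 by 0.69 ± 0.47 in that comparison, Ikzf2 by −0.51 ± 0.81 in allogeneic minus syngeneic culture, and none was called.

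For each of the 10 genes, the genes of most similar pattern were sought among 9084 others brighter than the median gene, by Pearson's r over the 9 arrays after removal of the mean of each number. The highest coefficients were 0.968 to 0.997, and with 9 arrays that share numbers they are descriptions. Closest to Tnfrsf4 were Gch1 and Grasp, to Tnfrsf9 Gnb1 and Cox6b1, to Tnfrsf18 Ubl7 and Rab22a, to Tnfrsf1b Nlk and Mtmr6, and to Cd27 Cabin1 and Ezr. Closest to Cd40lg were U2af2 and Ctc1, to Tnfsf10 Dido1 and Nop53, to Tnfsf11 Sap30bp and Rbks, to Tnfsf14 Chst2 and Ints13, and to Ltb Edc4 and Mrtfa.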

How the data were processed

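The deposited values are log2 signals per probe set, made by the authors with RMA (robust multi-array average), per the submitters' processing notes; the sources used here name neither its software and version nor which arrays were normalized together. They were used as deposited. Of 45101 probe sets, 64 controls, 932 with several genes and 9160 with no listed gene were left out. The other 34945 were named from the platform annotation, 34741 of them updated by gene ID, and each of 18193 genes was represented by the probe set with the highest mean over 9 arrays. Groups were compared with limma 3.58.1 in R 4.3.3 (1 mean per group over the 9 arrays, with an intensity trend), and p-values were adjusted by Benjamini-Hochberg across the 18193 genes.

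Deviations from the group means correlated at 0.811 to 0.921 in each of the 9 array pairs that share a replicate number, so the numbers were taken as pairing. The block on number was an alternative. In simulated data on 18193 genes with allogeneic over syngeneic changes, the test without the block recovered 3% of genes changed by 2 (log2) and 68% of those changed by 4, and with the block 84% and 97%. False calls were 0 without the block and 11 with it. These shares hold for the simulated data only. The largest mean difference of the chosen TNF superfamily genes was 0.68 (Tnfrsf4, allogeneic minus anti-CD3/CD28 culture). Recovery of changes that small was not tested.

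The genes, lists and tests were chosen with earlier results of these data known. Named genes are the 10, fixed partner genes, the up to 3 genes with the smallest p per pathway list and comparison, and the 2 of most similar pattern; listed genes with no probe set of their own, such as Nfkb1 and Tnfsf18, were not analysed here. The number of arrays limits the precision.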

Additional observations from a re-analysis of the deposited data

How the results depend on the processing

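None of the 30 differences of the 10 genes was called under any alternative run, and the lowest adjusted p among their 660 alternative values was 0.366 (limma). Of these values 89 had the opposite sign, in 26 of the 30. They include the runs that left out 1 array, which unbalance the groups (below). Replicate numbers pair the arrays, and the replicate block changed no call: 0 genes were called in each comparison, with 825, 1236 and 205 at an unadjusted p under 0.05. The random replicate block called 1 gene in allogeneic minus syngeneic and 30 in anti-CD3/CD28 minus syngeneic culture, and centring arrays on their medians called 1 in each. The block without the arrays numbered 1 was chosen after seeing the data.

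The sign turned in these settings, and the cause was not tested. With the mean of all probe sets, allogeneic minus syngeneic was 0.14 for Tnfsf14, 0.074 for Fasl and −0.019 for Nfkb2, and anti-CD3/CD28 minus syngeneic was 0.31 for Tnfrsf9. With quantile normalization, Ltb was 0.094 in allogeneic and 0.057 in anti-CD3/CD28 minus syngeneic, and allogeneic minus anti-CD3/CD28 was 0.051 for Tnfrsf18 and −0.062 for Tnfsf10. With centred arrays, anti-CD3/CD28 minus syngeneic was 0.070 for Tnfrsf9 and 0.087 for Ltb, and allogeneic minus anti-CD3/CD28 was −0.048 for Tnfrsf9, −0.12 for Tnfrsf1b, −0.083 for Tnfsf10 and −0.076 for Lta. With the block and without number 1, allogeneic minus syngeneic was −0.40 for Tnfrsf9 and 0.095 for Ltb, anti-CD3/CD28 minus syngeneic was −0.034 for Tnfrsf18, −0.010 for Tnfsf11, 0.093 for Ltb and −0.045 for Tnfrsf14, and allogeneic minus anti-CD3/CD28 was 0.11 for Tnfrsf18 and −0.081 for Tnfrsf1b.

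Leaving out 1 array, or all arrays of 1 number, turned these differences, given as lowest to highest over both kinds of run. Leaving out 1 array makes the groups unequal in replicate number, so a turn there does not show a reversal within numbers. Without numbers 1, 2 and 3 in turn, allogeneic minus syngeneic stayed at 0.28, 0.48 and 0.25 for Tnfrsf4 and −0.29, −0.45 and −0.51 for Tnfsf10. For Tnfrsf9 it was −0.40, 0.31 and 0.26, and so turned. In allogeneic minus syngeneic they spanned −0.80 to 1.38 for Tnfrsf4, −0.63 to 0.91 for Tnfrsf9, −0.41 to 0.90 for Tnfrsf18, −0.39 to 0.49 for Cd27, −0.20 to 0.75 for Cd40lg and −0.96 to 0.26 for Tnfsf10. They also spanned −0.55 to 0.88 for Tnfsf14, −0.91 to 0.75 for Ltb, −1.25 to 0.39 for Fas, −1.04 to 0.70 for Fasl, −1.19 to 0.20 for Ikzf2 and −0.97 to 1.19 for Nfkb2. They also spanned −0.28 to 0.035 for Nfkbia, −0.19 to 1.26 for Tnf, −0.12 to 0.75 for Tnfrsf10b, −0.57 to 0.066 for Tnfrsf13c, −0.37 to 0.76 for Tnfrsf14 and −0.87 to 0.24 for Tnfrsf1a. They also spanned −1.08 to 0.90 for Tnfsf4 and −0.51 to 0.88 for Tnfsf9. In anti-CD3/CD28 minus syngeneic they spanned −1.11 to 0.70 for Tnfrsf4, −0.73 to 0.81 for Tnfrsf9, −0.21 to 0.96 for Tnfrsf18, −0.078 to 0.80 for Cd27, −0.068 to 1.06 for Cd40lg and −1.03 to 0.17 for Tnfsf10. They also spanned −0.030 to 0.68 for Tnfsf11, −0.042 to 0.65 for Tnfsf14, −0.91 to 0.75 for Ltb, −1.24 to 0.56 for Nfkb2, −0.13 to 1.35 for Tnf and −0.55 to 0.53 for Tnfrsf14. They also spanned −0.74 to 0.32 for Tnfrsf1a and −1.10 to 0.049 for Tnfsf9. In allogeneic minus anti-CD3/CD28 they spanned −0.45 to 1.44 for Tnfrsf4, −0.56 to 0.52 for Tnfrsf9, −0.70 to 0.44 for Tnfrsf18, −0.49 to 0.43 for Tnfrsf1b, −0.61 to 0.018 for Cd27 and −0.62 to 0.27 for Cd40lg. They also spanned −0.58 to 0.74 for Tnfsf10, −0.20 to 0.39 for Tnfsf11, −0.86 to 0.56 for Tnfsf14, −0.13 to 1.23 for Fas, −0.14 to 1.53 for Fasl and −0.060 to 0.56 for Il2ra. They also spanned −0.21 to 0.86 for Itgae, −0.47 to 0.69 for Lta, −0.53 to 1.60 for Nfkb2, −0.92 to 0.78 for Tnf, −0.32 to 0.73 for Tnfrsf14 and −0.70 to 0.36 for Tnfrsf1a. They also spanned −0.0071 to 1.38 for Tnfsf9 and −0.055 to 0.60 for Traf1. With 3 arrays a group, the spread between numbers limits what the test without the block can call.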
